A study of Mus musculus with 6 samples.

Results

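The genes described here are those of myoglobin and of iron and heme handling: Mb, Hjv, Tfrc, Fth1, Ftl1, Slc11a2, Slc40a1, Steap3, Hmox1 and Alas1. They were chosen by gene symbol, and all probe sets that the platform annotation assigns to one of these symbols alone were taken (Hfe2 is an older name of Hjv). Of the 10 genes, 9 have such a probe set, among 18193 genes that do. They carry 21 tested probe sets, and Tfrc has 3 further ones among the control probe sets of the array, out of 45101 probe sets in all. Ftl1, the ferritin light chain, has 3 probe sets, each also annotated to the pseudogene Ftl1-ps2, so no value is given for it.

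C2C12 is an immortalized line of mouse skeletal myoblasts, and both groups are this same line with no added transgene or drug. Proliferating cells were grown in 20% serum, in MEM by the labels and in its Dulbecco form by the methods of the study. The methods give this serum as fetal calf serum (FCS). Differentiated cells were collected on day 6 in 2% horse serum, so the groups differed in the source of the serum as well as its amount. There were 3 RNA samples per group, called biological replicates in the labels, with 1 Affymetrix array for each. Each RNA sample combined 3 pools, from cultures begun on successive days, and each pool came from 3 plates. The spread between arrays is thus that between such combined samples, and not between single pools or cultures. Differentiated cultures hold myotubes together with mononucleated cells that did not fuse, and in such bulk RNA a change in the number of cells of a type and a change in RNA per cell cannot be told apart.

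Myoglobin is the oxygen-binding heme protein of muscle, so its synthesis needs both iron and heme. Cells take up transferrin-bound iron through the transferrin receptor (Tfrc), reduce it in the endosome (Steap3), move it into the cytosol (Slc11a2, also named DMT1), store it in ferritin (Fth1 and Ftl1) and export it through ferroportin (Slc40a1). Heme is made in a pathway that starts with 5-aminolevulinate synthase (Alas1 in most tissues, Alas2 in erythroid cells) and is degraded by heme oxygenase (Hmox1). Hemojuvelin (Hjv) is a membrane-anchored co-receptor for bone morphogenetic proteins, known from skeletal muscle and liver, where it acts on hepcidin and thereby on body iron.

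The values are MAS5 signals on a linear scale, scaled so that every array has the same trimmed mean, 249.9. The brightest of 27 probe sets for bacterial transcripts lay between 51.9 and 87.0 on the 6 arrays, and a signal at or under that of its own array was read as background. Fold changes are differences of log2(signal + 15), differentiated less proliferating, tested with limma over 45037 probe sets. Calls were made at an adjusted p (Benjamini-Hochberg) under 0.05. With each gene represented by its brightest probe set, 8.67% of the 18193 genes were called higher and 9.05% lower in differentiated cells (17.7% in all), and the groups did not overlap in 33.5%. Among the muscle markers Myod1, Myf5, Myog, Des, Ckm, Acta1 and Myh3, all 7 were above background on all differentiated arrays and 5 rose. Of 7 measured erythroid markers none was called, and Alas2, Gata1, Klf1 and Rhag were at background on all 6 arrays. Hba-a1 and Slc4a1 were above background on some arrays and Epor on all 6. Summed signals of the 7 were 244 to 351 in proliferating and 232 to 341 in differentiated cells.

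Myoglobin and hemojuvelin transcripts rose from signals near background to bright ones, ferroportin rose and the transferrin receptor fell moderately. The other genes, which encode ferritin heavy chain, the iron transporter Slc11a2, the reductase Steap3, Hmox1 and Alas1, did not pass. Of the 9 measured genes, 3 were thus higher and 1 was lower, beside 8.67% and 9.05% of all 18193 genes. The median log2 fold change of the 9 was 0.01, beside 0.06 over all genes. Of their 21 probe sets 5 were higher and 2 lower, beside 6.14% and 6.43% of all probe sets tested, and in 10 the groups did not overlap, beside 27.2%. All 9 genes were above background on every array of at least 1 group, whereas the shares over all features include dim ones. With dim probe sets left out, 6599 of 24103 were called, beside 5659 of 45037 in the main test. The shares given for all features are thus low for a comparison with bright genes.

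**Figure D1:**
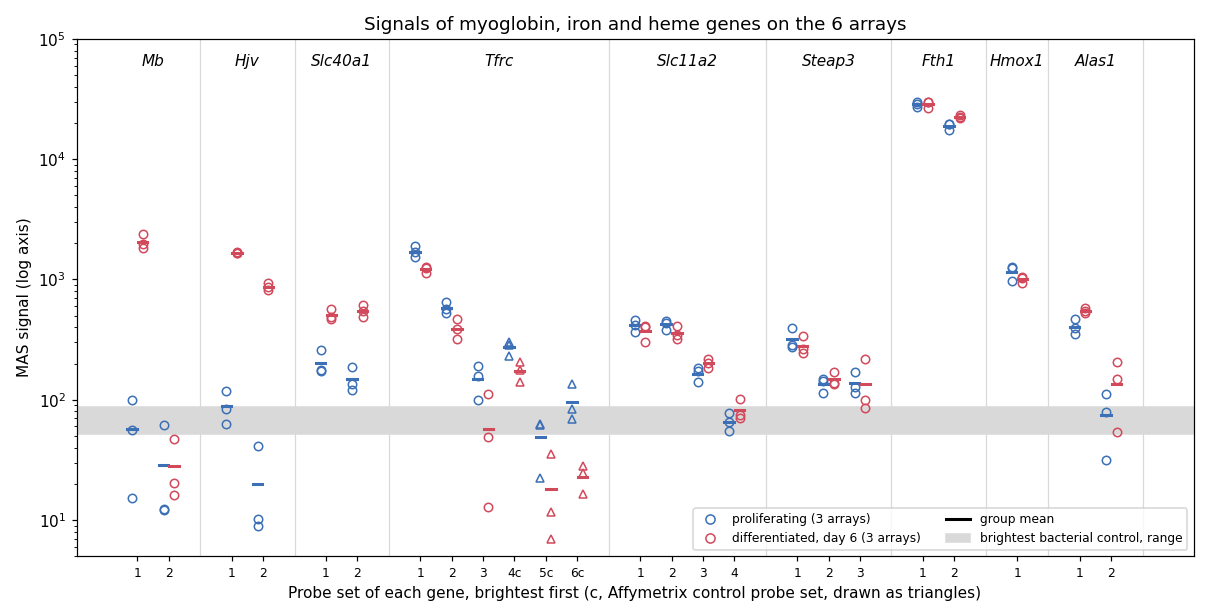
MAS5 signal (vertical axis, log scale) of every probe set annotated to 1 of the genes alone (horizontal axis, tested probe sets from brightest to dimmest; triangles are the Tfrc control probe sets for the 3′ end, the 5′ end and the middle, in that order). Circles or triangles are single arrays, bars group means, and the shaded band runs from 51.9 to 87.0, the range of the brightest bacterial control. Mb 1, both Hjv and both Slc40a1 probe sets have differentiated arrays that all lie above the proliferating ones. The same holds for the third Slc11a2, second Fth1 and first Alas1 probe sets, which did not pass.

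The promoter of Mb is shown because, of the 3 genes that rose at their brightest probe set, it alone has a window in the RefSeq promoter table. The RefSeq table lists 3 windows for Mb in the mouse (build GRCm38.p6, chromosome 15, minus strand), each for another start site. The second listed is printed, chosen after its sequence was read, because it holds a CCAC box, an element known from the myoglobin promoter. Its 250 bases before the start, at chr15:77022788-77023037, read 5′ to 3′ on the strand of the gene as follows, with matches to CANNTG, the E-box bound by MyoD and myogenin, and to CCCACCCC, a form of the CCAC box, in capitals.
Mb promoter: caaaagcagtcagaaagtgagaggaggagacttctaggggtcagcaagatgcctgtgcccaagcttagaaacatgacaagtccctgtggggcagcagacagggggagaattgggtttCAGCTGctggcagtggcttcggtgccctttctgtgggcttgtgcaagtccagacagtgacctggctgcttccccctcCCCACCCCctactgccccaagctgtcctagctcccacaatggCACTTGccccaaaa
Counted to their first base, the E-box matches lie 133 and 14 bases before the start, and the CCCACCCC match lies 56 bases before it. On both strands of the same 250 bases, 66.2% of 32851 promoter windows hold CANNTG and 8.52% hold CCCACCCC, and the matches shown do not overlap each other. Before the start of the first listed window (77050619 to 77050918) there are 2 CANNTG matches and no CCCACCCC match, and before that of the third (77022678 to 77022977), which overlaps the one printed, there are 3 and 1. A MEF2 site was not matched before any of the 3 starts and is matched in 2.92% of all windows. These matches describe letters only. Windows were found for 6 of the 10 genes, and Hjv, Slc40a1, Slc11a2 and Hmox1 were not matched.

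Mb was carried by 2 probe sets that differed. At the brighter one (1451203_at), signals on the proliferating arrays were 15.4, 55.6 and 100.3, and those on the differentiated arrays were 1989, 1822 and 2392. Only the third proliferating array was above background, and every differentiated array was far above it. The log2 fold change was 5.04 (SE, its standard error, 0.35, limma adjusted p = 8.1e-07), from 57.1 ± 42.5 to 2068 ± 293 (SD, n = 3 each). Since the low group was mostly at background, this size moved with the treatment of dim values, from 5.54 with no pseudocount to 4.67 when signals under the bacterial control were raised to it. The dimmer probe set (1422420_at) was at 12.1, 12.3 and 61.8 on the proliferating and at 16.3, 20.4 and 47.1 on the differentiated arrays. It was above background on 1 of 6 arrays, so it carries no readable change, and averaging both probe sets gave a log2 fold change of 2.57.

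The genes whose profile over the 6 arrays lay closest to that of Mb were Myoz2, Tnnt1, Ankrd2, Mymx and Casq2. Each was taken by its brightest probe set and centered on its own mean, and the Euclidean distances in log2 units were 0.91, 1.02, 1.15, 1.19 and 1.20. They encode a Z-disc protein, slow skeletal troponin T, a stretch-responsive ankyrin repeat protein, a micropeptide of myoblast fusion and a calcium-binding protein of the sarcoplasmic reticulum. With 6 arrays in 2 groups, genes with a like difference between groups are close by construction. The order also rests in part on signals at background, since of the 3 proliferating arrays 1 was above background for Mb, none for Myoz2 and Mymx, 2 for Tnnt1 and Ankrd2, and 3 for Casq2.

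Hjv rose at both of its probe sets. At the brighter one (1454137_s_at) the proliferating arrays had signals of 62.7, 118 and 83.9 and the differentiated arrays 1660, 1668 and 1692. On the proliferating side 2 of 3 arrays were above background, and the differentiated arrays lay within a narrow range. The log2 fold change was 4.07 (SE 0.18, limma adjusted p = 1.3e-08), from 88.2 ± 28.0 to 1673 ± 16.8 (SD, n = 3 each). The other probe set (1429223_a_at) had 10.3, 8.9 and 40.9 against 926, 862 and 824. All of its proliferating arrays were at background, so only a bound can be given, at least 10.9-fold higher in differentiated cells. The transcript of hepcidin (Hamp), on which Hjv acts in liver, was dim, at 64.8, 107 and 132 and at 148, 169 and 199.5, and its change of 0.72 did not pass (adjusted p = 0.16).

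Slc40a1, the only known exporter of cellular iron, rose at both probe sets. Its brighter one (1448566_at) was at 172, 258 and 175 on the proliferating arrays and at 567, 466 and 484 on the differentiated arrays. All 6 signals were above background and the groups did not overlap. The log2 fold change was 1.28 (SE 0.18, limma adjusted p = 0.00031), or 2.43-fold, from 202 ± 48.7 to 506 ± 53.8 (SD, n = 3 each). The other probe set (1417061_at) had 121.5, 134 and 187 against 617, 550.2 and 486, again without overlap. Its log2 fold change was 1.81 (SE 0.19, adjusted p = 2.3e-05).

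Tfrc, the receptor for transferrin and a gene usually high in dividing cells, was lower in differentiated cells. The brightest probe set (1452661_at) had signals of 1698, 1540 and 1880 on the proliferating and of 1263, 1248 and 1124 on the differentiated arrays. The receptor was thus still well above background in differentiated cells, and the groups did not overlap. The log2 fold change was -0.49 (SE 0.10, limma adjusted p = 0.0068), or 1.40-fold lower, from 1706 ± 170 to 1212 ± 76.1 (SD, n = 3 each). The next probe set (1422966_a_at) had 644, 567 and 531 against 467, 320.2 and 385. Its change was -0.56 (SE 0.15, adjusted p = 0.028). The dimmest one (1422967_a_at) was at 191, 100.4 and 158 against 110.8, 12.9 and 49.2, with overlap, and its change of -1.40 did not pass (adjusted p = 0.11). This dim probe set moved with single arrays, to -1.92 (adjusted p = 0.037) without differentiated replicate 1 and to -0.83 (adjusted p = 0.30) without differentiated replicate 2. It also passed with dim probe sets left out (-1.40, adjusted p = 0.047) and with signals raised to the bacterial control (-0.93, adjusted p = 0.042).
With its probe sets averaged, Tfrc was at -0.82 (adjusted p = 0.019). Neither call of Tfrc held with eBayes without trend (adjusted p = 0.17 and 0.19). That of the second probe set also ended without proliferating replicate 1 or 2 (-0.49 and -0.58) and without differentiated replicate 2 or 3 (-0.43 and -0.56), with adjusted p-values of 0.061 to 0.12.

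The array has 3 control probe sets for the mouse transferrin receptor, placed at the 3′ end, the middle and the 5′ end of the transcript, which were outside the test across probe sets. At the 3′ end the signals were 285, 231 and 302 on the proliferating and 176, 139.7 and 206 on the differentiated arrays, a log2 difference of -0.62. The middle probe set had 135, 69.8 and 84.1 against 27.9, 16.4 and 24.4. It was above background on all proliferating arrays and at background on all differentiated ones, at least 1.45-fold lower. For both, the groups did not overlap and a 2-sided exact permutation test gave p = 0.10, the smallest that groups of 3 allow. The 5′ probe set was above background on 1 of 6 arrays. The ratio of 3′ to 5′ signal, a measure of RNA and labeling quality, was 1.23 to 1.31 for the actin control on proliferating and 1.07 to 1.11 on differentiated arrays, and 0.79 to 0.85 for the Gapdh control over all 6; its part in the Tfrc difference was not tested.

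**Figure D2:**
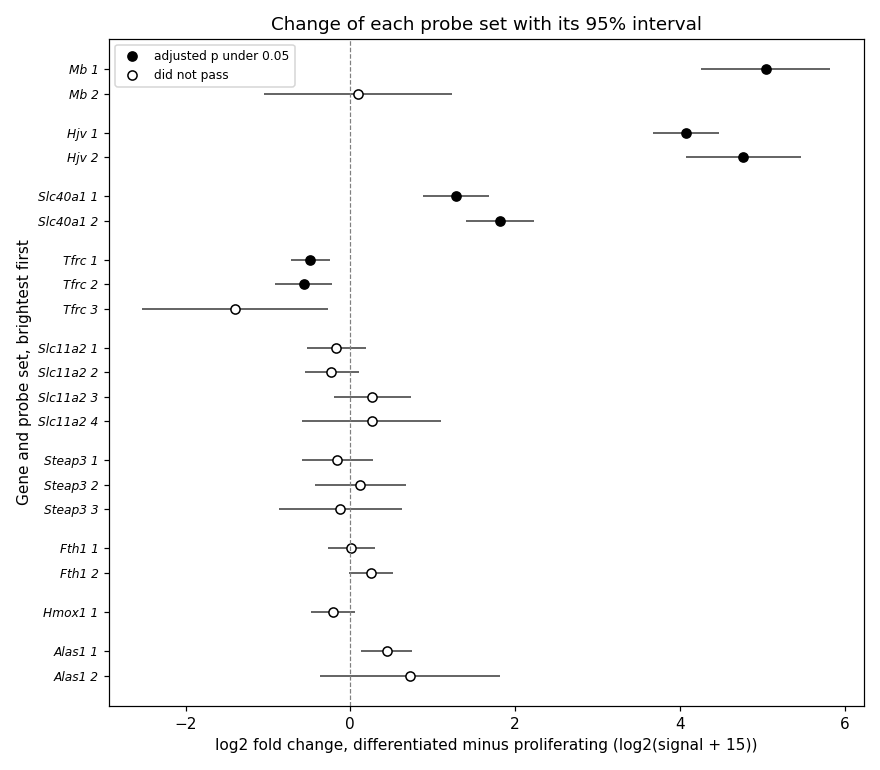
Change on the log2 scale between differentiated and proliferating cells (horizontal axis, positive where differentiated cells are higher, 3 arrays a group) of the 21 tested probe sets (vertical axis, each gene from its brightest to its dimmest). Lines are 95% intervals from limma, filled circles have an adjusted p under 0.05 and open circles do not. The intervals of Mb 2 and Slc11a2 4 are wide and these signals were near background. That of Alas1 2 is wide too, with 2 of 3 proliferating and all 3 differentiated arrays above background. So is that of Tfrc 3, with 1 of 3 differentiated arrays above background.

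Slc11a2 and Steap3, which act on iron inside the endosome, showed no change that passed. The brightest Slc11a2 probe set (1426441_at) had 463, 365 and 422 on the proliferating and 402, 411 and 300.5 on the differentiated arrays. The groups overlapped, and the log2 fold change was -0.17 with a 95% interval of -0.51 to 0.18 (adjusted p = 0.63, limma). Its other 3 probe sets were at -0.23, 0.26 and 0.26, and none passed, though at 1417584_at (0.26) the groups did not overlap. The brightest Steap3 probe set (1423468_at) had 272, 396 and 285.5 against 263, 341 and 243. This also overlapped, at -0.16 with a 95% interval of -0.57 to 0.26 (adjusted p = 0.71), and the other 2 were at 0.12 and -0.12. Changes up to about the ends of these intervals are not excluded by 3 arrays per group.

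Fth1 was among the brightest transcripts of the array in both groups. Its brightest probe set (1427021_s_at) had 27343, 28937 and 29838 on the proliferating and 26773, 30038 and 30127 on the differentiated arrays. The log2 fold change was 0.01, with a 95% interval of -0.26 to 0.29 (adjusted p = 0.97, limma). At the second probe set (1448771_a_at) the signals were 17457, 19469 and 19732 against 21865, 22434 and 23094. Here the groups did not overlap, but the change of 0.25 did not pass (adjusted p = 0.22). With quantile normalization it passed, at 0.45 (adjusted p = 0.0058), and it also passed with dim probe sets left out (0.25, adjusted p = 0.04). Ferritin heavy chain has many processed pseudogenes, so the share of each locus in these signals is uncertain, and the table carries no flags for saturated spots.

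On the heme side, Alas1 was somewhat brighter in differentiated cells without passing the test. Its brightest probe set (1424126_at) had 473, 391 and 350.4 on the proliferating and 582, 523 and 547 on the differentiated arrays. The groups did not overlap, and the log2 fold change of 0.44 had a 95% interval of 0.14 to 0.74 (SE 0.14, limma adjusted p = 0.059). It passed without proliferating replicate 1 (0.55, adjusted p = 0.03) and with dim probe sets left out (0.44, adjusted p = 0.04). The second Alas1 probe set (1455282_x_at) had 31.3, 79.8 and 112 against 53.6, 207 and 149. It was above background on 2 of 3 proliferating and on all 3 differentiated arrays. Its groups overlapped, and its change of 0.72 (SE 0.50) did not pass (adjusted p = 0.46). Hmox1 has 1 probe set (1448239_at), with 979.5, 1242 and 1265 on the proliferating and 1044, 928 and 1028 on the differentiated arrays. These overlapped, and the log2 fold change was -0.21 with a 95% interval of -0.46 to 0.05 (adjusted p = 0.35).

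Beyond these genes, 66 others of iron and heme metabolism were listed by role, and 60 have a probe set of their own. Of these, 6 rose, 11 fell and 43 missed the threshold, with a median log2 fold change of 0.11 beside 0.06 over all genes, and beside 8.67% of all genes called higher and 9.05% lower. In iron-sulfur cluster assembly 8 of 13 genes were called and in the other roles 9 of 47, beside 17.7% of all genes. These counts were set side by side after they were seen and were not tested. All 13 iron-sulfur genes were above background on all arrays of a group or of both, beside 49 of the 60 measured genes, these 13 included. All of the dim genes were thus in the other roles, and the part of brightness in this contrast was not tested. With eBayes without trend the calls of Blvra, Steap1, Cp, Fdx1 and Glrx5 held, and the other 12 were lost.

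**Figure D3:**
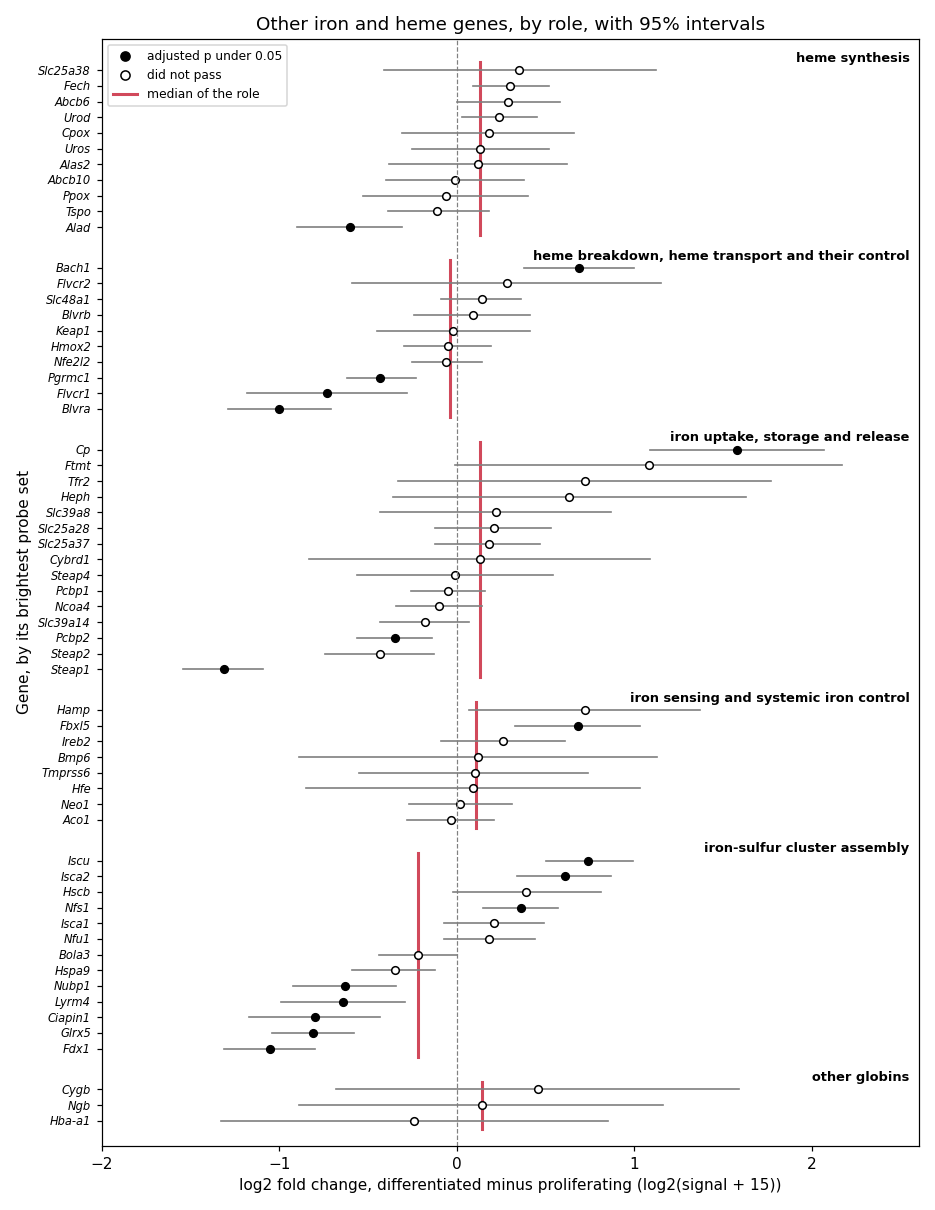
Change on the log2 scale between differentiated and proliferating cells (horizontal axis, positive where differentiated cells are higher, 3 arrays a group) of 60 other iron and heme genes (vertical axis), each by its brightest probe set and grouped by role. Lines are 95% intervals from limma, filled circles have an adjusted p under 0.05, and red lines are medians, 0.13 for heme synthesis and -0.22 for iron-sulfur cluster assembly.

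Of 11 other measured genes of heme synthesis, 1 was called, beside 17.7% of all genes. This was Alad, the enzyme that joins 2 aminolevulinate molecules, and it was lower. Its signals were 811, 1017 and 755 against 509, 633 and 539, a change of -0.60 (SE 0.14, limma adjusted p = 0.0099). The call ended without differentiated replicate 1 (-0.54, adjusted p = 0.056) and with both Alad probe sets averaged (-0.11, adjusted p = 0.80). The enzymes Uros (0.13), Urod (0.24), Cpox (0.18), Ppox (-0.06) and Fech (0.30), and the transporters and membrane proteins Slc25a38 (0.35), Abcb10 (-0.01), Abcb6 (0.29) and Tspo (-0.11) did not pass. The erythroid synthase Alas2 was at background on all 6 arrays. A dimmer probe set of Ppox and one of Fech did pass, in both cases as higher.

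Among genes of heme breakdown and transport, 3 of 10 were lower and 1 was higher, beside 9.05% and 8.67% of all genes. Blvra, a biliverdin reductase that acts after heme oxygenase, had 590.0, 772 and 669 on the proliferating and 339, 328 and 322 on the differentiated arrays. Its log2 fold change was -1.0 (SE 0.13, limma adjusted p = 0.0002), while Blvrb was at 0.09 and Hmox2 at -0.05 without passing. The heme exporter Flvcr1 was at -0.73 (adjusted p = 0.037) and the heme-binding membrane protein Pgrmc1 at -0.43 (adjusted p = 0.0057). Bach1, a heme-sensing repressor of Hmox1, rose by 0.69 (SE 0.14, adjusted p = 0.0057), from 735 ± 157 to 1175 ± 67.6 (SD, n = 3 each). Of its 2 probe sets only this one was called, and the call held with both averaged. The call of Flvcr1 ended without differentiated replicate 1 or 2 (-0.62 and -0.71) or proliferating replicate 1 or 3 (-0.67 for both), and averaging its 2 probe sets gave 0.00.

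In iron uptake, storage and release, 1 of 15 genes was higher and 2 were lower, beside 8.67% and 9.05% of all genes. Ceruloplasmin (Cp), a copper ferroxidase that acts with ferroportin, had 221, 461 and 433 on the proliferating and 948, 1291 and 1045.5 on the differentiated arrays. All differentiated arrays were above all proliferating ones, the log2 fold change was 1.58 (SE 0.23, limma adjusted p = 0.00036), and 6 of its 8 probe sets were higher. Steap1, of the same family as Steap3, fell from 1319 ± 14.2 to 523 ± 40.4 (SD, n = 3 each), that is by -1.31 on the log2 scale (SE 0.10, adjusted p = 2.2e-06). The iron chaperone Pcbp2 was called lower at -0.35 (adjusted p = 0.029), but of its 3 probe sets 2 were lower and 1 higher, and their mean gave 0.36 (adjusted p = 0.074). Its call also ended without differentiated replicate 1 or 2 (-0.31 and -0.37) or proliferating replicate 1 or 3 (-0.34 for both), and with quantile normalization (-0.24). The 12 genes that did not pass ranged from -0.43 to 1.08. The lower end was Steap2, whose groups did not overlap (adjusted p = 0.068) and which was called under some alternatives. The upper end was Ftmt, which was at background on all proliferating arrays and above it on 2 of 3 differentiated ones.

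Of 8 genes that sense iron or control it in the body, 1 was called, Fbxl5, beside 17.7% of all genes. Fbxl5 is the iron-binding subunit of a ubiquitin ligase that removes iron regulatory protein 2 (Ireb2), and its signals were 379, 287.5 and 443 against 544, 571 and 667. Its log2 fold change was 0.68 (SE 0.16, limma adjusted p = 0.014), and 0.59 (adjusted p = 0.066) without differentiated replicate 3. The iron regulatory proteins Ireb2 and Aco1, which bind the transcripts of ferritin and of the transferrin receptor, were at 0.26 and -0.03 and did not pass.

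Genes of iron-sulfur cluster assembly moved in both directions, with 3 of 13 higher and 5 lower, beside 8.67% and 9.05% of all genes. Iscu, the scaffold on which clusters form, had 1583, 1993 and 1541 on the proliferating and 2772, 2694 and 3079.9 on the differentiated arrays. Its log2 fold change was 0.74 (SE 0.11, limma adjusted p = 0.00058). Ferredoxin (Fdx1), an electron donor of mitochondria, had 1569, 1977 and 1556 against 776, 762 and 890.3, the groups far apart. It changed by -1.05 (SE 0.12, adjusted p = 4.7e-05). Glrx5, a glutaredoxin that passes clusters on, fell from 2715 ± 325 to 1536 ± 78.7 (SD, n = 3 each), a change of -0.81 (adjusted p = 0.00014), and Ciapin1, of the cytosolic pathway, changed by -0.80 (adjusted p = 0.0064). With its 4 probe sets averaged Ciapin1 was at -0.20 (adjusted p = 0.58). The other called genes, named after their values were seen, were Isca2 (0.61) and the cysteine desulfurase Nfs1 (0.36), both higher, and its partner Lyrm4 (-0.64) and the cytosolic Nubp1 (-0.63), both lower. The call of Nfs1 ended under 8 of 16 alternatives, among them the omission of any differentiated replicate or of proliferating replicate 1 (0.32 to 0.39), and that of Lyrm4 without differentiated replicate 3 (-0.47) or proliferating replicate 1 or 3 (-0.63 and -0.64).

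No other globin was called. Cygb (0.46), Ngb (0.14) and Hba-a1 (-0.24) did not pass, and none was above background on all arrays of a group. Macrophages recycle iron and express ferroportin. Of 7 macrophage markers, 3 (Adgre1, Cd68 and Csf1r) were above background on all arrays of each group. Adgre1 rose by 0.87 (adjusted p = 0.049), while Cd68 (0.10) and Csf1r (0.39) did not pass. Lyz2 was above background on 2 of 3 arrays in each group and Itgam on 1 of 3. Ptprc was above it on 1 of 6 arrays, and Cd163 on 1 differentiated array. Summed signals of the 7 markers were 472 to 638 on proliferating and 654 to 825 on differentiated arrays. The part of macrophages in the changes of Slc40a1 and Cp was not tested. None of 4 measured adipocyte and none of 4 endothelial markers was called, with summed signals of 25.3 to 120.0 and 174 to 254 on proliferating and of 107 to 199 and 199 to 302 on differentiated arrays.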

How the data were processed

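RNA of C2C12 cells was hybridized to Affymetrix Mouse Genome 430 2.0 arrays, and images were analyzed with MAS5 by the authors. The deposited intensity of a probe set is its linear, scaled MAS5 signal; GCRMA and a Bayesian regularized test followed in the study and are not in the table. Probe-level data, which GCRMA needs, were not used here. The test covered 45037 probe sets, all but 64 Affymetrix controls. It used lmFit and eBayes (trend) of limma 3.58.1 under R 4.3.3 on log2(signal + 15), 2-sided, with Benjamini-Hochberg adjustment over all of them. The 95% intervals come from the moderated standard error, and 3 arrays per group limit the precision. Probe sets were named by the platform annotation: 34945 have 1 symbol, 932 several and 9160 none. A gene is represented by its brightest probe set over the 6 arrays. Named are all probe sets of the genes of interest, the genes of heme synthesis, up to 4 called genes with the largest change in each other role, and the 5 genes closest to Mb. Hamp, Hmox2, Blvrb, Steap2, Ftmt, Ireb2, Aco1 and the globins fall outside this rule and were named after their values were seen. The genes and lists were chosen with earlier results of these data known. Same-numbered arrays did not deviate together (correlation of deviations 0.001 to 0.012), and the main fit did not pair them. How cultures of the same number were set up cannot be read from this. Alternatives were quantile normalization, scaling to the 75th percentile, other pseudocounts, leaving out dim probe sets, eBayes without trend, the regularized test (101 neighbors, prior weight 10), a replicate block, leaving out each array, averaging probe sets and, chosen after seeing the data, a floor at the bacterial control. Tables were made in Python 3.11.15 with pandas 2.3.3 and scipy 1.17.1.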

Additional observations from a re-analysis of the deposited data

How the results depend on the processing

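Mb, Hjv and Slc40a1 were called higher under all 16 alternatives, with log2 fold changes of 2.57 to 5.54, 3.88 to 4.42 and 1.19 to 1.55. Tfrc was at -0.82 to -0.41 and was called lower under 15 of 16. With eBayes without trend it stayed at -0.49 (adjusted p = 0.17), so that the number of these genes called lower was 0, while 1 gene of the iron and heme list was higher and 4 were lower. With all probe sets of a gene averaged, 7 genes of that list were lower. Alad, Flvcr1, Pcbp2 and Ciapin1 (-0.11, 0.00, 0.36 and -0.20) were then no longer called lower. Why their probe sets differ was not tested. Values near 0 that did not pass changed sign or reached 0: Fth1 was at -0.04 with arrays scaled to the same 75th percentile and at -0.02 to 0.07 with 1 array left out, Slc11a2 was at 0.03 with probe sets averaged, and Steap3 was at -0.30 to 0.00 with 1 array left out. With the replicate block the counts were 3 higher and 1 lower for the genes of interest and 5 higher and 10 lower for the list. Pcbp2 (-0.35, adjusted p = 0.063) and Nfs1 (0.36, adjusted p = 0.054) were lost from the list. The dimmest Tfrc probe set passed at -1.40 (adjusted p = 0.049), as it did under 3 other alternatives. Whether arrays of the same number belong together is not known. Over all probe sets 5659 were called, and 2669 with eBayes without trend. Signals near the bacterial controls on some arrays limit Mb, Hjv and the dimmest Tfrc and Alas1 probe sets.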
